A study of Mus musculus with 5 samples.

Results

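Cells make cholesterol and fatty acids from acetyl-CoA, and the developing brain depends on its own synthesis because little cholesterol crosses from the blood. Acetyl-CoA units are built into mevalonate and then isoprenoids, joined to squalene, closed into lanosterol and trimmed in many steps to cholesterol, while acetyl-CoA carboxylase and fatty acid synthase make palmitate, which elongases and desaturases then modify. Many of these genes are switched on together by the sterol regulatory element binding proteins (SREBPs), membrane-bound transcription factors that the INSIG proteins hold in the endoplasmic reticulum when sterols are plentiful. The set described here was a list of 30 genes of these pathways and their regulators, chosen by symbol with earlier results of these data known. A probe set with 1 gene symbol in the platform annotation was found for 29 of them, out of 18193 named genes on the array. The exception was Acat2, the cytosolic acetyl-CoA acetyltransferase of the mevalonate pathway, which was not analysed here. Where a gene had several probe sets, the brightest over all arrays stood for it. All 29 genes were bright enough in every array to be tested, among 11063 genes tested in all.

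RNA had been prepared from the medial ganglionic eminence (MGE), a ventral forebrain domain that produces cortical interneurons and other neurons, of mouse embryos at E15.5 (days of embryonic development). The rostral part of its ventricular and subventricular zones, the layers of dividing progenitors, was hybridised either as dissected tissue or after primary neuronal culture. The groups were WT tissue (1 array), tissue of embryos mutant for both homeodomain transcription factor genes Dlx1 and Dlx2 (2 arrays), WT culture (1 array) and Dlx1/2 mutant culture (1 array). The labels name no strain, allele, pooling, culture medium or time in culture, and leave unstated if the pair of mutant tissue arrays represents different embryos. P-values therefore measure a spread between arrays that may be technical, and the WT and culture arrays are assumed to vary like the mutant tissue pair.

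Levels are log2 signals after quantile normalization, and differences are log2 differences given as estimate ± SE (standard error) from limma. An adjusted p below 0.05 over all genes tested counts as past the threshold. Deposited array medians ranged from 26.2 to 29.8 in signal. The mutant tissue arrays differed from each other with an SD of 0.162 over the 29 genes and 0.324 over all genes tested, and the largest gap among the 29 was 0.41, for Dhcr7. Dlx1 was at 11.64 in WT tissue and 9.23 in WT culture, and at the floor of 2.36 in all mutant arrays, as the labels say. The MGE transcription factor gene Lhx6 was at 9.80 or more in the tissue arrays, while Nkx2-1, which specifies the MGE, lay between 3.63 and 6.23 over the 5 arrays. Neuronal Tubb3 lay between 11.10 and 12.02 and progenitor Sox2 between 11.41 and 12.76.

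**Figure D1:**
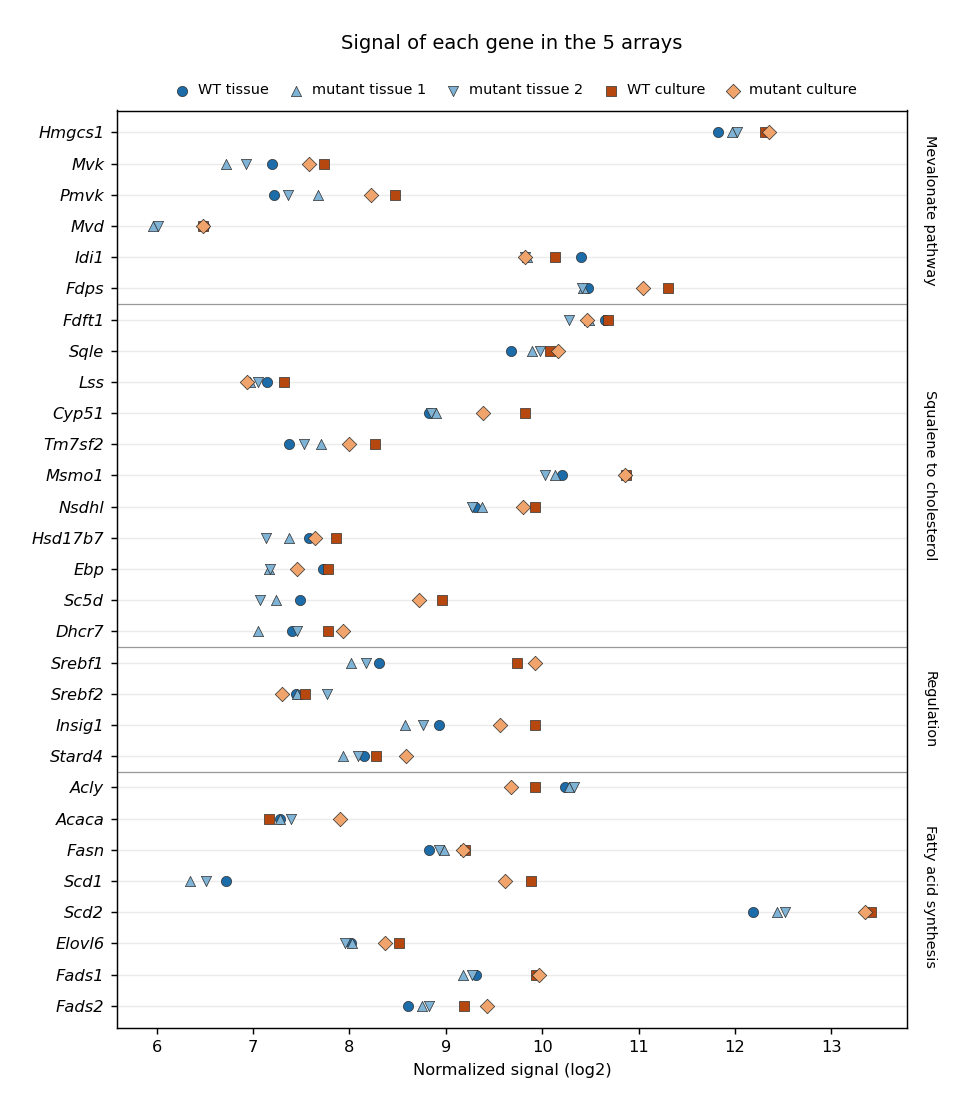
Normalized log2 signal (horizontal axis) of the 29 genes, in pathway order, in the 5 arrays, with 1 marker per array and no error bars. The culture arrays (orange squares and diamonds) lie above all tissue arrays (blue) for 21 genes and below them for Acly.

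Most genes of the set were higher in culture than in tissue. With both genotypes in 1 model, 18 of the 29 genes were higher in culture and 1 was lower, where 19.6% of all genes tested were higher and 19.2% lower. The set's median difference was 0.55, against 0 over all genes tested, and 26 of 29 estimates lay above 0 (50.1% of all genes). Both culture arrays lay above all 3 tissue arrays for 21 of the 29 genes, as they did for 29.6% of all genes, and below them for 1 gene (29.2% of all genes). Only 4 genes passed 2-fold, 13.8% of the set and likewise 13.8% of all genes, so the differences were mostly small and in 1 direction.

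Of 4 genes of control and transport, 2 were higher in culture and 2 did not pass (median 0.66). Srebf1, which encodes SREBP-1, the family member best known for driving fatty acid synthesis, was at 8.31 in WT tissue against 8.02 and 8.17 in its mutant counterpart, with the cultures at 9.74 (WT) and 9.92 (mutant). The groups did not overlap, and Srebf1 was higher in culture by 1.65 ± 0.14 (3.14-fold, adjusted p = 1e-04). Insig1, whose product retains SREBPs when sterols are high and whose gene is itself an SREBP target, read 8.93 in WT tissue against 8.58 and 8.76 in its mutant counterpart, with the cultures at 9.92 (WT) and 9.56 (mutant). It was higher in culture by 0.94 ± 0.12 (adjusted p = 0.00065). Srebf2, which encodes the family member best known for driving cholesterol synthesis, read 7.45 in WT tissue against 7.46 and 7.77 in its mutant counterpart, with the cultures at 7.54 (WT) and 7.30 (mutant). Tissue and culture overlapped, and Srebf2 did not pass (-0.14 ± 0.18, 95% interval -0.55 to 0.27, adjusted p = 0.57). Stard4, a carrier of cholesterol between membranes, was at 7.93 to 8.15 in tissue and at 8.27 and 8.59 in culture, without overlap, but did not pass (0.38 ± 0.15, adjusted p = 0.084).

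Of 6 mevalonate pathway genes, 4 were higher in culture and 2 did not pass (median 0.54). Hmgcs1, the synthase that makes HMG-CoA, was at 11.82 in WT tissue against 11.97 and 12.02 in its mutant counterpart, with the cultures at 12.31 (WT) and 12.35 (mutant). Culture exceeded tissue by 0.41 ± 0.07 (1.33-fold, adjusted p = 0.0027). For Mvk, the mevalonate kinase gene, the difference was 0.66 ± 0.17 (adjusted p = 0.016), and for Pmvk, the next kinase of the pathway, 0.94 ± 0.18 (adjusted p = 0.0051). Pmvk was at 7.22 in WT tissue against 7.67 and 7.36 in its mutant counterpart, with the cultures at 8.47 (WT) and 8.22 (mutant). Fdps, which makes farnesyl diphosphate, was tightly grouped at 10.41 to 10.47 in tissue and stood at 11.30 and 11.05 in culture (0.71 ± 0.09, 1.64-fold, adjusted p = 0.00064; 0.38, adjusted p = 0.12, with its probe sets averaged). The other Fdps probe set had a mean of 2.39, near the floor of 2.36. Mvd, the mevalonate diphosphate decarboxylase gene, and Idi1, the isomerase gene of the following step, did not pass. Mvd read 6.48 in both culture arrays and 6.49 in WT tissue, with 5.96 and 6.01 in mutant tissue. Idi1 had a difference of -0.12 ± 0.10 (95% interval -0.36 to 0.11).

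From squalene to cholesterol, 7 of 11 genes were higher in culture, 4 did not pass, and all 11 estimates lay above 0 (median 0.55). Sc5d, the desaturase of the sterol ring in a late step, had the largest difference of these. It was at 7.49 in WT tissue against 7.24 and 7.07 in its mutant counterpart, with the cultures at 8.96 (WT) and 8.72 (mutant). The difference was 1.52 ± 0.14 (2.86-fold, adjusted p = 0.00017), but its size depended on the probe set. As mean culture less mean tissue, this probe set gave 1.57, and dimmer ones of Sc5d gave 0.56 and 0.37. With Sc5d probe sets averaged, the estimate was 0.87 (adjusted p = 0.0089 by limma). Of the genes that act in removing methyl groups from lanosterol, the demethylase gene Cyp51 was higher by 0.72 ± 0.14 (adjusted p = 0.0048), the methyl oxidase gene Msmo1 by 0.73 ± 0.09 (adjusted p = 0.00069) and the decarboxylating dehydrogenase gene Nsdhl by 0.55 ± 0.11 (adjusted p = 0.0052). Msmo1 read 10.03 to 10.21 in tissue and 10.87 and 10.86 in culture, and Nsdhl 9.27 to 9.37 in tissue and 9.92 and 9.80 in culture. The sterol reductase genes Tm7sf2 and Dhcr7 passed with 0.60 ± 0.17 (adjusted p = 0.024) and 0.55 ± 0.18 (adjusted p = 0.044). Sqle, the squalene epoxidase gene, passed by a small difference of 0.30 ± 0.10 (adjusted p = 0.047).

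The genes on either side of Sqle did not pass. Fdft1, the squalene synthase gene, overlapped between preparations, with 10.28 to 10.65 in tissue and 10.68 and 10.46 in culture (0.06 ± 0.10, 95% interval -0.17 to 0.28). Lss, which closes squalene epoxide into lanosterol, differed by 0.04 ± 0.17 (95% interval -0.35 to 0.42). Ebp, the sterol isomerase gene, differed by 0.19 ± 0.15 (adjusted p = 0.37), and Hsd17b7, the keto-reductase gene of the demethylation steps, by 0.34 ± 0.16 (adjusted p = 0.13), although its culture arrays lay above all tissue arrays.

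**Figure D2:**
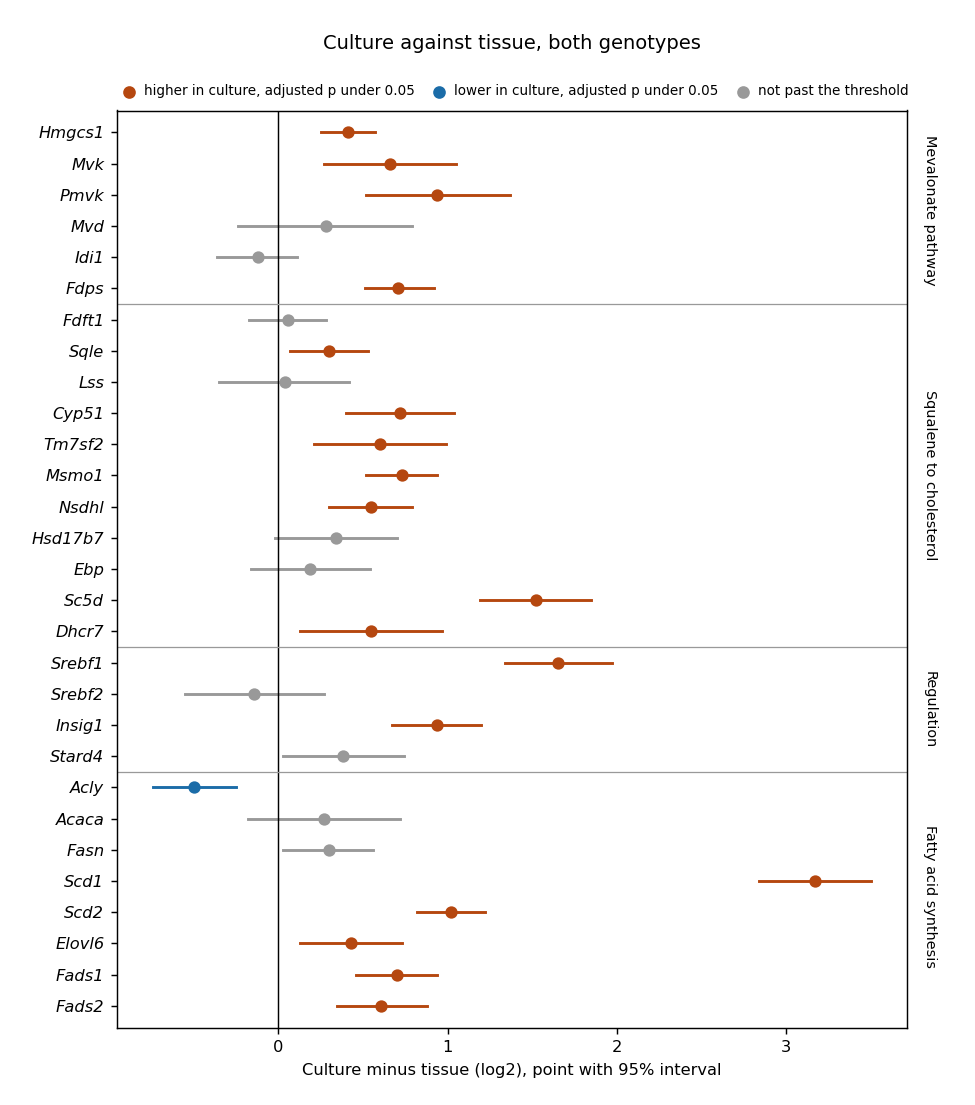
Culture minus tissue (log2, horizontal axis) for the 29 genes in pathway order, from the model with preparation and genotype over 5 arrays. Points are estimates with 95% intervals; Scd1, Srebf1 and Sc5d stand farthest to the right (3.17, 1.65 and 1.52), and Acly is the gene past the threshold to the left (-0.50).

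In fatty acid synthesis, 5 of 8 genes were higher in culture, 1 was lower and 2 did not pass (median 0.52). The desaturases led. Scd1, a stearoyl-CoA desaturase that makes monounsaturated fatty acids, was at 6.72 in WT tissue against 6.35 and 6.51 in its mutant counterpart, with the cultures at 9.88 (WT) and 9.61 (mutant). That is 3.17 ± 0.14 higher (9.01-fold, adjusted p = 6e-06), the largest difference of the 29 genes, and its other probe set above the intensity filter differed by 2.67. Scd2, the desaturase gene most active in the embryonic and newborn brain, read 12.19 in WT tissue against 12.44 and 12.52 in its mutant counterpart, with the cultures at 13.41 (WT) and 13.35 (mutant) (1.02 ± 0.09, 2.02-fold, adjusted p = 0.00011). The polyunsaturated fatty acid desaturase genes Fads1 and Fads2 were higher by 0.70 ± 0.10 (adjusted p = 0.0016) and 0.61 ± 0.11 (adjusted p = 0.0041). Elovl6, which lengthens palmitate, was higher by 0.43 ± 0.13 (adjusted p = 0.033).

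Of the genes that supply acetyl-CoA and make palmitate, none was higher in culture past the threshold. Acly, which supplies cytosolic acetyl-CoA from citrate, was at 10.24 in WT tissue against 10.28 and 10.33 in its mutant counterpart, with the cultures at 9.92 (WT) and 9.68 (mutant). Both culture values lay below every tissue value, and Acly was lower in culture by 0.50 on the log2 scale (-0.50 ± 0.11, 1.41-fold, adjusted p = 0.0083), with its other 2 probe sets above the filter at -0.56 and -0.77. Fasn, fatty acid synthase, read 8.82 to 8.98 in tissue and 9.20 and 9.18 in culture and did not pass (0.30 ± 0.11, adjusted p = 0.074). Acaca, the acetyl-CoA carboxylase gene, was at 7.16 in WT culture, below all tissue arrays, and at 7.90 in mutant culture, above them all (tissue 7.28, 7.28 and 7.39; 0.27 ± 0.19, adjusted p = 0.31).

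Most genes also lay above 0 in each genotype taken alone, in comparisons that share their arrays with the model above. In WT, with 1 array each and so no test, 25 of 29 genes were above 0 in culture against 49.8% of all genes. By at least 2-fold, 5 were higher (9.73% of all genes) and 0 lower (6.78%): Scd1 8.97-fold, Sc5d 2.76-fold, Srebf1 2.69-fold, Pmvk 2.39-fold and Scd2 2.33-fold. In mutants, where tissue had 2 arrays, 25 of 29 estimates were above 0 (50.2% of all genes), 18 genes were higher in culture (21.5% of all genes) and 1 was lower (21.4%). There Scd1 was higher by 3.17 ± 0.16 (adjusted p = 6.8e-07), Srebf1 by 1.82 ± 0.12 (adjusted p = 4.3e-06) and Sc5d by 1.56 ± 0.16 (adjusted p = 4.8e-05), and Acly was lower (-0.63 ± 0.09, adjusted p = 0.00039). Sqle and Tm7sf2 were called in the joint model and not in mutants alone, and Stard4 and Acaca in mutants alone and not in the joint model; whether the genotypes differ is the interaction test given below. With dim genes tested as well, 11 genes passed as higher in the joint model and 0 in mutants alone, where the adjusted p of Scd1 was 0.06; averaging probe sets left 9 in mutants alone and dropping the intensity trend 8.

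Some of the smaller differences lost their call when 1 array was left out or when probe sets were averaged. A fit without 1 array has fewer degrees of freedom, so a lost call alone does not show that the difference rested on that array. Some estimates shrank and others did not. Dhcr7 was at 0.55 with all arrays, 0.43 without mutant tissue array 1 and 0.63 without mutant tissue array 2. Mvk did not pass without mutant tissue array 1 (0.59, adjusted p = 0.07) or without the mutant culture (0.53, adjusted p = 0.085). Dhcr7 was lost without mutant tissue array 1 (0.43, adjusted p = 0.15), mutant tissue array 2 (0.63, adjusted p = 0.067) or the mutant culture (0.38, adjusted p = 0.22), and Elovl6 without WT tissue (0.38, adjusted p = 0.05), mutant tissue array 1 (0.46, adjusted p = 0.1) or mutant tissue array 2 (0.42, adjusted p = 0.13). Sqle was lost without WT tissue (0.22, adjusted p = 0.085), mutant tissue array 1 (0.29, adjusted p = 0.18), mutant tissue array 2 (0.34, adjusted p = 0.11) or WT culture (0.23, adjusted p = 0.072). Tm7sf2 was lost without WT tissue (0.39, adjusted p = 0.077), mutant tissue array 2 (0.60, adjusted p = 0.079) or WT culture (0.38, adjusted p = 0.081). A call was gained by 3 genes: Stard4 (0.58, adjusted p = 0.01 and 0.0044) and Acaca (0.56, adjusted p = 0.028 and 0.018) without WT tissue and without WT culture, and Fasn without the mutant culture (0.38, adjusted p = 0.037). With probe sets averaged, Fads1 stood at 0.06 (adjusted p = 0.78 by limma) and Msmo1 at 0.56 (adjusted p = 0.064). The other Fads1 probe set lay above the intensity filter and differed by -0.52. That of Msmo1 lay below the filter, at a mean of 4.43, and differed by 0.43. Scd1, Scd2, Srebf1, Sc5d, Insig1, Nsdhl and Fads2 passed under all 11 alternatives run.

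**Figure D3:**
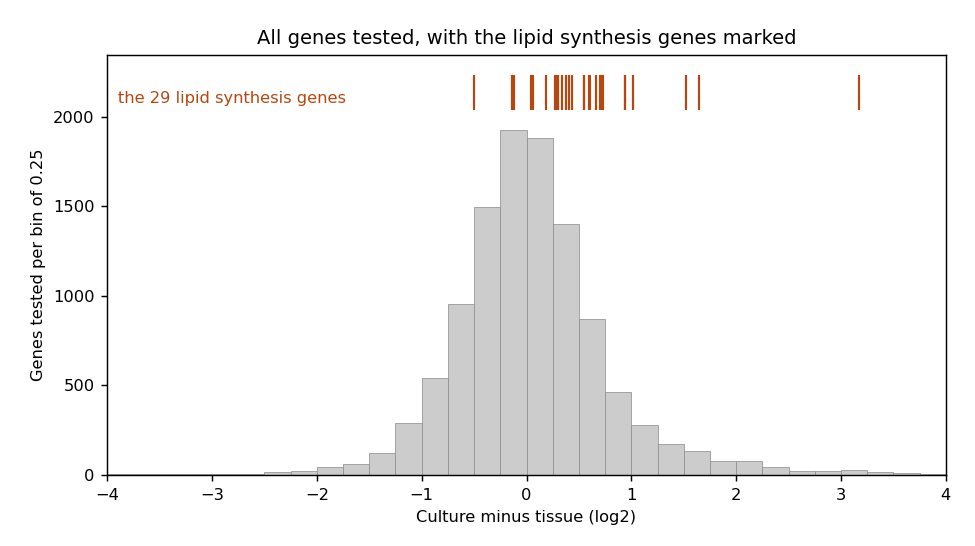
Histogram of culture minus tissue (log2, horizontal axis) for the genes tested, in bins of 0.25, with the number of genes on the vertical axis and the 29 lipid synthesis genes as ticks above it. Of the genes tested, 47 lie beyond 4 log2 either way and are not drawn; the ticks run from -0.50 to 3.17 and 26 of 29 lie above 0.

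Preparations also differed in marker genes of other cell types. Red blood cell genes, at a summed normalized signal of 9420 to 10400 in tissue, were at 21.9 and 20.6 in culture, with Hba-x and Alas2 at the floor there. Endothelial genes summed to 745 to 906 in tissue and 147 and 207 in culture, where Pecam1 was at the floor, and microglial genes to 687 to 742 against 526 and 436. All 3 red blood cell genes tested, 1 of 3 endothelial genes and 2 of 5 microglial genes were lower in culture. Over all genes tested, 19.6% were higher and 19.2% lower in culture, which bears on each count in this paragraph. The red blood cell genes and Cldn5, the endothelial gene called, passed the intensity filter only through tissue. In culture the former were at or near the floor, and Cldn5 was at 4.23 and 4.29. Astrocyte genes summed to 2600 to 3690 in tissue and to 3630 and 5310 in culture; of the 6 tested, 3 were higher and 2 lower in culture, and Gfap, at 2.36 to 3.99, was at or near the floor in every array. Neuronal genes summed to 13200 to 15600 in tissue and 11300 and 10900 in culture (2 higher and 4 lower of 6), progenitor genes to 17700 to 18200 against 15600 and 17700 (2 higher and 2 lower of 7), and oligodendrocyte lineage genes to 1330 to 2420 against 708 and 1350 (0 higher and 3 lower of 5). MGE genes were lower in culture (4 of 6), summing to 7930 in WT tissue and 2180 in WT culture. Choroid plexus genes summed to 45.4 to 57.2 in tissue and 98.6 and 116 in culture, where the 1 gene of 4 that was tested, Folr1, was higher. Folr1 was at 3.72 to 4.83 in tissue and at 5.99 and 6.42 in culture, and passed the intensity filter only through culture. The other genes were too dim to be tested. Ttr was at 3.97 in WT tissue and 3.66 in WT culture, and at the floor in all mutant arrays. Kl was at the floor in both cultures, and Aqp1 was at 2.36 to 4.11 in tissue and 4.12 and 4.27 in culture. In RNA from mixed cells, fewer cells of a type and less RNA per cell cannot be told apart, and the part of these shifts in the lipid gene differences was not tested.

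As most of the genes differed in the same direction, their promoters were read in RefSeq's GRCm38.p6 table, which covered 23 of the 30 listed genes with windows of 250 bases before the start site and 50 after it. The core of the sterol regulatory element, searched as TCACNCCA on both strands, was found before the start in 3 of 23 genes (13%), against 4.2% of 27025 genes of the table. The NF-Y box CCAAT, bound by the factor that often acts with SREBPs, was found in 18 of 23 (78.3%) against 37.5%, and the E-box CACGTG in 4 of 23 (17.4%) against 6.86%. The E-box genes were Dhcr7, Hsd17b7, Insig1 and Sc5d. A match describes letters in this window and not a bound site. The genes with a sterol element core are shown from base -190 to -1 before the start, on the gene's strand; capitals mark TCACNCCA and CCAAT on either strand (the latter reads ATTGG on the opposite strand), and no matches of these motifs overlap. Hmgcs1 lies at chr13:119690161-119690350 (+), Msmo1 at chr8:64733579-64733768 (-) and Srebf2 at chr15:82147079-82147268 (+).
Hmgcs1: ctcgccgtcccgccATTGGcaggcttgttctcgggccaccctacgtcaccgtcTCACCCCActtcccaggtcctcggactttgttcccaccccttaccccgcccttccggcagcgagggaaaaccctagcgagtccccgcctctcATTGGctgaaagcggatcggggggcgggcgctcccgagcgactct
Msmo1: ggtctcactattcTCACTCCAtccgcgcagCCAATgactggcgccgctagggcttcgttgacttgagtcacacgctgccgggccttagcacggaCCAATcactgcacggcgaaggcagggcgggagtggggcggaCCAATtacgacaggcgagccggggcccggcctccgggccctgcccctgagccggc
Srebf2: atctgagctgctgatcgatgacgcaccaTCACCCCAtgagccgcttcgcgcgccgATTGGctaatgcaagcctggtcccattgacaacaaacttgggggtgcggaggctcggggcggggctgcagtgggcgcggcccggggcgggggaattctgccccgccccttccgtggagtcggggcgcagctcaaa
The stretches hold 1 sterol element core each, with 2 CCAAT boxes in Hmgcs1, 3 in Msmo1 and 1 in Srebf2. Of the genes shown, Hmgcs1 and Msmo1 were higher in culture and Srebf2 was not past the threshold. Of the genes analysed, Acaca, Acly, Elovl6 and Fads2 had windows with 0 CCAAT before the start. Elovl6 and Fads2 were higher in culture, Acly lower, and Acaca not past the threshold. The other covered genes all held CCAAT there. They include genes higher in culture and also Mvd, Idi1, Lss, Hsd17b7, Ebp, Srebf2 and Fasn, which did not pass. A match was thus present in genes with and without a culture call. The promoter table did not cover Fdps, Fdft1, Sqle, Stard4, Scd1, Scd2 and Fads1.

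Differences between Dlx1/2 mutant and WT arrays were small in this set. Across both preparations 0 of 29 genes passed in either direction by limma, where 0.814% of all genes tested were higher and 0.253% lower in mutants, and 4 of the 29 (13.8%, against 13% of all genes) had an unadjusted p under 0.05. For all 29 genes the 95% interval of the mutant minus WT difference lay within 2-fold either way, as it did for 81.5% of all genes. The set's median was -0.06, and 9 of 29 estimates lay above 0 (49.8% of all genes). Without either culture array, the genotype estimate rests on tissue alone. There Idi1 (-0.56 and -0.57), Ebp (-0.55) and Scd2 (0.29) passed, but many more of all genes passed too, so these calls are not particular to the set. The lowest estimates were for Idi1 (-0.46 ± 0.10, adjusted p = 0.097), Ebp (-0.45 ± 0.15, adjusted p = 0.27) and Insig1 (-0.30 ± 0.12, adjusted p = 0.32), and the highest for Acaca (0.35 ± 0.19, adjusted p = 0.48), Fads2 (0.20 ± 0.11, adjusted p = 0.49) and Sqle (0.18 ± 0.10, adjusted p = 0.49).

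In tissue alone, 1 gene of the set was lower in mutants (6.7% of all genes) and 1 higher (8.59%), shares of 3.45% each. The interval lay within 2-fold for 28 of 29 genes (74% of all genes), the exception being Mvd (-0.50, 95% interval -1.08 to 0.08). The other Mvd probe set had the same mean level of 6.28 and differed by 0.15. Both mutant arrays were above the WT array for 11 of the 29 genes (40.8% of all genes) and below it for 15 (40.2%). Idi1, the isopentenyl diphosphate isomerase gene, read 10.40 in WT tissue, whereas the mutant arrays were at 9.84 and 9.82, and was lower by 0.57 (-0.57 ± 0.09, 1.48-fold, adjusted p = 0.0014). In culture it read 10.13 in WT and 9.82 in the mutant, and its other probe set differed by -0.36 in tissue and -0.23 in culture. Scd2 was higher in mutant tissue by 0.29 ± 0.07 (1.22-fold, adjusted p = 0.013), a call lost with the deposited scaling, with a gene's probe sets averaged, without the filter on dim genes and without an intensity trend. The Idi1 call was lost without the filter and without the trend. Over all genes, tissue calls fell from 950 higher and 741 lower to 11 and 378 without the filter. Without the trend they fell to 0 and 2. The comparison rests on 1 WT array. Ebp stood at 7.72 in WT tissue, its mutant arrays read 7.16 and 7.18, and it missed the threshold (-0.55 ± 0.18, adjusted p = 0.055).

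In culture, with 1 array per genotype and no test, 0 of 29 genes differed by 2-fold (1.85% of all genes were higher by that much and 1.83% lower). The set's median was -0.16, against 0.01 over all genes tested, and -0.02 with a gene's probe sets averaged, and 9 of 29 genes were above 0 (51.7% of all genes). The range ran from -0.43 for Cyp51 (9.82 in WT, 9.39 in the mutant) to 0.74 for Acaca (7.16 and 7.90). Every mutant array lay below the WT array of its own preparation for 11 of the 29 genes (37.9%), and so it did for 20.6% of all genes. These were Mvk, Idi1, Fdps, Fdft1, Lss, Msmo1, Hsd17b7, Ebp, Sc5d, Insig1 and Scd1. The list depends on the probe set. In mutant minus WT tissue, other probe sets above the filter lay above 0 for Sc5d (0.44 and 0.67), Hsd17b7 (0.26 and 0.54) and Lss (0.22). Those of Fdft1 were at 0.02 and -0.41. The other probe set of Mvk, Idi1 and Scd1 lay below 0 in both preparations.

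**Figure D4:**
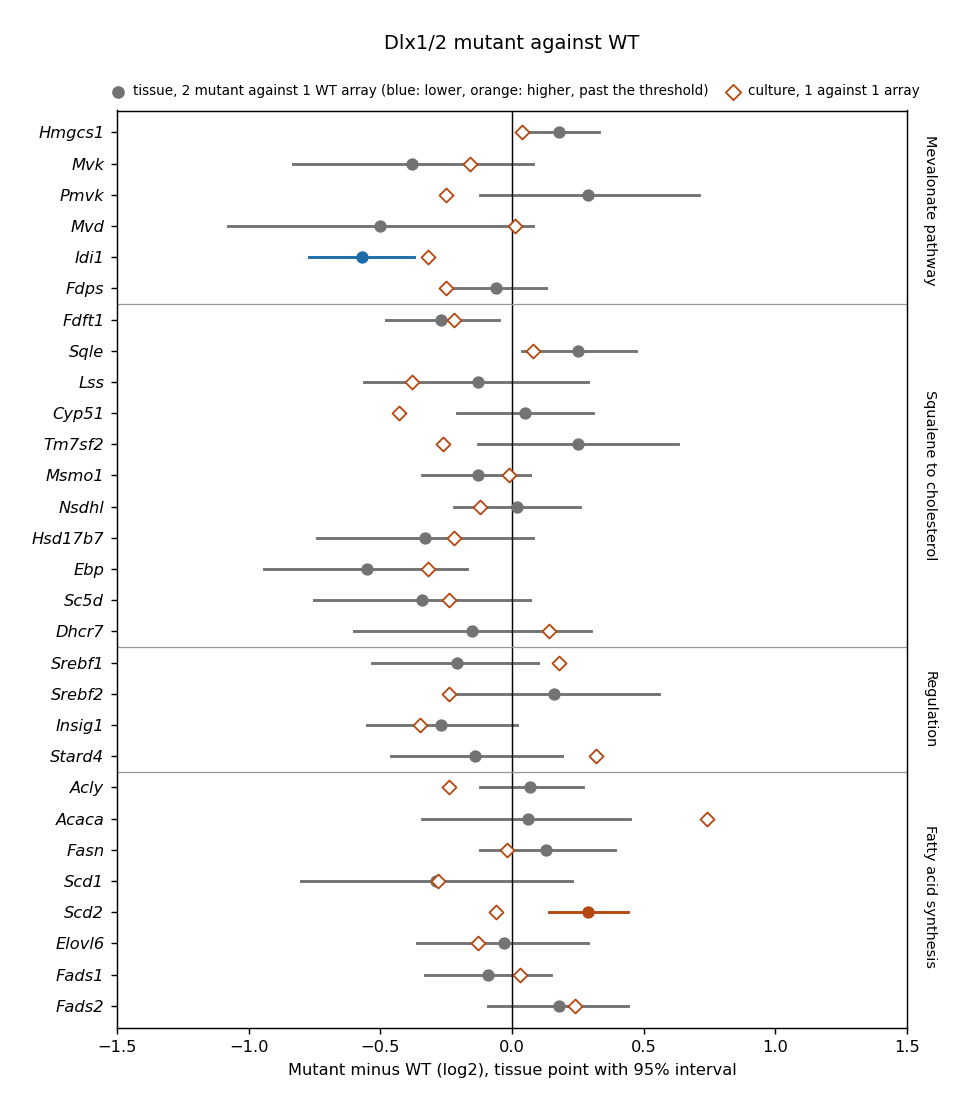
Mutant minus WT (log2, horizontal axis) for the 29 genes in pathway order; filled points with 95% intervals are tissue (2 mutant arrays and 1 WT), open diamonds are culture (1 array each, no interval). Idi1 (-0.57, blue) and Scd2 (0.29, orange) are past the threshold in tissue, and all points lie between -0.57 and 0.74.

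The interaction, the mutant minus WT difference in culture less that in tissue, passed for 0 of 29 genes in either direction by limma (2.21% of all genes were higher and 2.27% lower), and 4 of the 29 (13.8%, against 19.6% of all genes) had an unadjusted p under 0.05. The interval lay within 2-fold for 24 of 29 genes (52.9% of all genes). Scd2 came closest, with a difference of 0.29 in tissue and -0.06 in culture (interaction -0.35 ± 0.10, adjusted p = 0.083). Acaca differed by 0.06 in tissue and 0.74 in culture (0.69 ± 0.27, 95% interval 0.08 to 1.29, adjusted p = 0.19), and Cyp51 by 0.05 and -0.43 (-0.48 ± 0.17, adjusted p = 0.14). The same test bears on whether the culture difference depends on genotype, and for Scd1 the interaction was 0.01 ± 0.24 (95% interval -0.53 to 0.55).

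Other genes of the pathways, from lists written by role, are given beside the set. For comparison with each list, 19.6% of all genes tested were higher and 19.2% lower in culture. Among further genes of fatty acid supply, elongation and activation, 13 of 23 tested were higher and 1 lower in culture (median 0.38). The largest of these were Me1, the malic enzyme gene that supplies NADPH, at 6.32 to 6.61 in tissue and 8.85 and 8.88 in culture (2.41 ± 0.16, adjusted p = 3.5e-05), and Hacd1, a dehydratase gene of the elongation cycle, at 9.92 to 10.06 in tissue and 12.07 and 12.08 in culture (2.09 ± 0.08, adjusted p = 4.4e-06). The elongase gene Elovl1 was higher by 1.35 ± 0.14 (adjusted p = 0.00031) and Elovl2 lower (-1.08 ± 0.12, adjusted p = 0.00036), and the fatty acid binding protein gene Fabp7, a radial glial gene, was higher by 0.42 (adjusted p = 0.00069; 0.056 without the filter on dim genes and 0.055 without an intensity trend). Lpcat3, which puts polyunsaturated chains into phospholipids, was higher by 1.20 ± 0.14 (adjusted p = 5e-04).

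Among 9 genes that process SREBPs or act with them, 1 was higher and 2 lower in culture (median -0.23). Scap, the escort of SREBPs to the Golgi, was at 7.73 to 7.99 in tissue and 9.09 and 9.06 in culture (1.23 ± 0.13, adjusted p = 0.00035), but the difference was 0.10 (adjusted p = 0.80) with its probe sets averaged. The NF-Y subunit genes Nfya and Nfyb were lower in culture (-1.27 ± 0.17, adjusted p = 0.00092, and -0.99 ± 0.12, adjusted p = 0.00049), Nfya by -0.77 (adjusted p = 0.041) with probe sets averaged. Of 5 other sterol genes with a named probe set, out of 11 listed, 1 was higher and 2 lower in culture (median -0.33), namely the brain cholesterol hydroxylase gene Cyp46a1 (1.91 ± 0.62, adjusted p = 0.042), the geranylgeranyl diphosphate synthase gene Ggps1 (-0.44, adjusted p = 0.027) and the lysosomal cholesterol carrier gene Npc2 (-0.71 ± 0.08, adjusted p = 0.00032; -0.39, adjusted p = 0.065, with probe sets averaged).

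Among genes of the liver X receptors and cholesterol export, 3 of 7 tested were higher in mutant tissue and 0 lower (median 0.17). Over all genes tested, 8.59% were higher and 6.7% lower there. The rest of the list did not pass in tissue: Lpcat3 (0.17), Nr1h3 (-0.24), Mylip (-0.32) and Abcg4 (-0.54). Between preparations, 1 of 7 (Lpcat3) was higher in culture and 0 lower (19.6% and 19.2% of all genes). Apoe, which carries cholesterol between brain cells, was at 8.15 in WT tissue against 9.43 and 9.29 in its mutant counterpart, with the cultures at 8.13 (WT) and 9.35 (mutant) (1.21 ± 0.12 in tissue, adjusted p = 4.3e-05). The exporter gene Abca1 was higher in mutant tissue by 1.0 ± 0.08 (2-fold, adjusted p = 1.4e-05) and Abcg1 by 0.76 ± 0.17 (adjusted p = 0.011; 1.41, adjusted p = 0.043, with probe sets averaged). All 3 calls were lost without the filter on dim genes and without an intensity trend. Of the 6 astrocyte genes tested, 3 were also higher in mutant tissue and 0 lower, with summed signals of 2600 in WT and 3610 and 3690 in mutant tissue, and 4 of 5 oligodendrocyte lineage genes were higher (1330 in WT, 2370 and 2420 in mutants); their part in these differences was not tested. In other tissue lists the calls were 0 higher and 2 lower of 9 SREBP-processing genes (Sp1 -0.41, adjusted p = 0.017, and Nfya -0.55, adjusted p = 0.019, which were -0.03 and -0.04 with probe sets averaged), 1 higher (Fabp7 0.32, adjusted p = 0.0032; 0.11, adjusted p = 0.67, with the deposited scaling) and 2 lower (Elovl2 -0.37, adjusted p = 0.046, and Hacd2 -0.48, adjusted p = 0.042) of 23 fatty acid genes, and 0 of 5 sterol genes. With probe sets averaged, Elovl2 (adjusted p = 0.12) and Hacd2 (adjusted p = 0.22) were lost, and Elovl2 also with the deposited scaling (adjusted p = 0.053). These 5 calls were all lost without the filter on dim genes and without an intensity trend. Both settings also cut the tissue calls over all genes, by the counts given with Idi1 above. Of the remaining marker lists in tissue, mutants had 5 of 6 MGE genes lower, 3 of 6 neuronal genes higher and 1 lower, 2 of 7 progenitor genes higher and 2 lower, and 1 of 3 red blood cell genes lower. Microglial, endothelial and choroid plexus genes had 0 calls there.

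Probe sets of 1 gene did not always concur. Of 17 genes in the set with more than 1 probe set above the intensity filter, 8 had all of them on the same side in culture against tissue in both genotypes. Values for probe sets are the mean of the culture arrays less the mean of the tissue arrays. Among genes called higher in culture, a dimmer probe set lay below 0 for Hmgcs1 (-0.25, the dimmest of 5), Scd2 (-0.32, of 3) and Fads1 (-0.52, of 2). All 3 probe sets of Fads2, Sc5d and Cyp51 above the filter, and both of Mvk, Elovl6 and Scd1, lay above 0.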

How the data were processed

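Total RNA of 5 samples was measured on mouse expression arrays with 45101 probe sets. Each deposited file gives linear intensity, a value for every probe set; the values show each array scaled to a 2% trimmed mean of 150 signal units, and no source used here names the software. Arrays were quantile normalized, because deposited medians spanned 0.183 on the log2 scale, values under the pooled 20th percentile (5.15 signal units) were raised to it before taking log2. Names came from the platform annotation: 34958 probe sets had 1 symbol, 932 several and 9211 none, and 64 control probe sets were left out. All 29 genes matched the RefSeq gene table by Entrez identifier. Genes with a mean above the pooled median (4.80) were tested.

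Tests used limma 3.58.1 in R 4.3.3, lmFit and eBayes with an intensity trend, and Benjamini-Hochberg adjusted p over 11063 genes. The joint model had preparation and genotype (5 arrays, 2 residual and 5.95 prior degrees of freedom), the tissue model 3 arrays (1 and 10.89), and the model of 4 groups gave the mutant culture against tissue difference and the interaction (1 and 8.57). The code was tested on simulated data. The number of arrays limits the precision. Members and lists were chosen with earlier results of these data known. Of other pathway genes, those past the threshold, at most 10 a comparison by smallest adjusted p, were to be named, not all of which are; marker lists are given by counts and sums. Alternatives were the deposited scaling, another floor, no or a stricter filter, averaged probe sets, no intensity trend, and leaving out arrays.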

Additional observations from a re-analysis of the deposited data

Results flagged for a closer look

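Abca1, a cholesterol exporter gene, was the 1 lipid gene of the set and the pathway lists whose genotype difference differed between preparations past the threshold. It was at 10.29 in WT tissue against 11.34 and 11.23 in its mutant counterpart, with the cultures at 10.89 (WT) and 10.87 (mutant). Its mutant minus WT difference was 1.0 in tissue and -0.01 in culture, an interaction of -1.01 ± 0.13 (adjusted p = 0.0041). The call was lost without the filter on dim genes (adjusted p = 0.23), with probe sets averaged (-0.85, adjusted p = 0.19) and without an intensity trend (adjusted p = 0.25). Marker genes passed this test more often than the 2.21% (higher) and 2.27% (lower) of all genes. The calls were 3 higher and 1 lower of 6 MGE genes, 3 and 1 of 7 progenitor genes and 0 and 2 of 6 neuronal genes. Astrocyte genes had 1 and 0 of 6, and oligodendrocyte lineage genes 1 and 2 of 5. Among them were Lhx6 (-0.69, adjusted p = 0.032 by limma) and the targeted gene Dlx1 (2.41, adjusted p = 0.03 by limma). Dlx1 was at the floor in all mutant arrays, so its value reflects only WT tissue (11.64) against WT culture (9.23).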

How the results depend on the processing

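The 18 genes higher in culture in the joint model became 11 without the filter on dim genes, and 14 to 18 when each array was left out in turn; 13 to 18 passed under the remaining settings. Under every alternative run, 7 of the 19 called genes kept their call: Nsdhl, Sc5d, Srebf1, Insig1, Scd1, Scd2 and Fads2. The Acly call was lost (0 lower) without the filter and without an intensity trend; it stayed at 1 with each array left out. In mutants alone, 18 higher became 0 without the filter, 9 with averaged probe sets and 8 without a trend, and 1 lower became 0 without the filter. In tissue, 1 gene higher in mutants (Scd2) became 0 with the deposited scaling, without the filter, with averaged probe sets and without a trend; 1 lower (Idi1) became 0 without the filter and without a trend, and 2, with Ebp (adjusted p = 0.035), under a filter at the 60th percentile. Leaving out the filter or the trend also cut the tissue calls over all genes, as given with Idi1 above. Across both preparations, the genotype estimate rests on tissue alone without either culture array. There Scd2 passed as higher and Idi1 and Ebp as lower, and many more of all genes passed too. With any other array left out, no gene of the set passed. In the interaction, 0 lower became 1 under the 60th percentile filter (Scd2 -0.35, adjusted p = 0.039). The culture median of the set moved from -0.16 to -0.02 with averaged probe sets. The causes were not tested. Without a mutant tissue array the tissue, mutant and interaction fits had no residual degree of freedom, so no calls could be made. No paired analysis was possible because the groups share 1 replicate number, given in accession order.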

Other observations

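Genes of mitochondrial fatty acid oxidation, which breaks fatty acids down, differed between preparations too. Of 14 genes tested, 8 were higher in culture and 0 lower in the joint model (19.6% and 19.2% of all genes), with a median of 0.38 and a range of -0.43 to 1.12, and the range of the mutant minus WT difference was -0.25 to 0.24 with 0 calls across both preparations. In tissue 1 was lower in mutants, the electron transfer flavoprotein gene Etfa (-0.47 ± 0.10, adjusted p = 0.009), a call lost with probe sets averaged (adjusted p = 0.063), without the filter on dim genes (adjusted p = 0.3) and without an intensity trend (adjusted p = 0.2). The acyl-CoA dehydrogenase genes Acadl and Acadm, named after their values were seen, were higher by 1.12 ± 0.16 (adjusted p = 0.0011) and 0.91 ± 0.13 (adjusted p = 0.0012).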
